A study of Mus musculus with 2 samples.

Results

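Osr1, Osr2, Barx1, Erg, Enpp2 and Prg4 were followed in the developing limb of the mouse, as regulators and products of the joint interzone. They were chosen by name from knowledge of joint development and not by a rule on a measured value, although earlier results of these data were known. All 6 were found among the 43346 Ensembl genes of the deposited gene tables. The material was limb tissue of B6NCrl embryos at embryonic day 13.5 (E13.5), healthy and with both sexes pooled. The labels give no transgene, mutation or treatment, and do not say whether forelimb, hindlimb or both were taken. There was 1 group with 2 libraries, numbered as biological replicates 2 and 1. Each has a tissue sample of its own, but both name the same donor entry. Each was made from 10 ng of total RNA over 200 nt with synthetic ERCC spike-ins. A mean is written ± its SD over both libraries (n = 2), and since separate litters are not stated this spread may be partly technical.

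The interzone is the band of flattened, tightly packed cells that forms across a cartilage model where a joint will be. Its cells stop making cartilage matrix, express Gdf5 and later contribute to the articular surface, the synovial lining and the ligaments. Osr1 and Osr2, the odd-skipped related zinc-finger factors, are needed together for joint formation in the mouse, and Osr1 also marks connective tissue progenitors of limb muscle. Barx1 is a homeobox factor known to repress chondrogenic differentiation at joint sites. Erg is an ETS-family factor of future articular cells and also a standard endothelial factor. Enpp2 encodes autotaxin, the secreted enzyme that makes lysophosphatidic acid (LPA). Prg4 encodes lubricin, the mucin-like lubricant of the mature joint surface. The libraries are of whole tissue, so a difference in the number of cells of a type cannot be told apart from a difference in RNA per cell.

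Replicate 2 held 42301448 expected counts over Ensembl genes and replicate 1 held 31253053. An expected count is a model-based estimate in which a read that matches several transcripts is divided among them. The common biological coefficient of variation between the libraries was 5.19%. All 6 genes of the limb tissue list (Prrx1, Msx1, Tbx5, Pitx1, Hoxa13 and Hoxd13) were at 21.7 TPM or more in the mean, whereas 1 of 6 foregut and kidney genes reached 1 TPM in both libraries, namely Six2 at 7.66 TPM. TPM is the deposited level per effective transcript length, scaled to the same total in each library.

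Sequences are shown first for the stretches on which the later results turn. Osr1 and Osr2 code for near-identical zinc fingers, so their shared stretch shows whether reads of the pair can be assigned. A script aligned 259 nt of their coding sequences without gaps and found 208 identical bases, or 80.3%. The most alike 90 nt, which span an intron in both genes, are given with the 10 bases that differ in capitals. They lie between chr12:9579765-9580550 for Osr1 and chr15:35300927-35301972 for Osr2, both on the plus strand of mm10.
Osr1: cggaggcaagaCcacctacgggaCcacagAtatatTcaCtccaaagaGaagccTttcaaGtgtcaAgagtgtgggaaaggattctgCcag
Osr2: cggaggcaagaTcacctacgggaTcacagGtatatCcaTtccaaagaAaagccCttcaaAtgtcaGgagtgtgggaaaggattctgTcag
Over the aligned segment the longest run without a difference was 23 nt.

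The optional exons of Enpp2 and Erg are given in capitals, with 15 bases of the exons next to them in lower case, because the transcript shares below divide on them. All are read 5′ to 3′ along the minus strand. The 156-nt exon of Enpp2 lies at chr15:54877776-54877931 and its 75-nt exon at chr15:54851348-54851422. The 72-nt exon of Erg lies at chr16:95377301-95377372 and its 69-nt exon at chr16:95369995-95370063, next to each other in the model from which both were read.
Enpp2, 156 nt: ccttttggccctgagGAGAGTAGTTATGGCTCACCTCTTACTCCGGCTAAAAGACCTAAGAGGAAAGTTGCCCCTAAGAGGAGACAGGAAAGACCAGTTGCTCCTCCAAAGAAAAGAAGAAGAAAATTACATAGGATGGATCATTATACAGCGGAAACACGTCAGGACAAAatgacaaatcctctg
Enpp2, 75 nt: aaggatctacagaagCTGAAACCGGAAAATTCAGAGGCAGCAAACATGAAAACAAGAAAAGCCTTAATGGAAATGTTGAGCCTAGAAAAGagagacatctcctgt
Erg, 72 nt: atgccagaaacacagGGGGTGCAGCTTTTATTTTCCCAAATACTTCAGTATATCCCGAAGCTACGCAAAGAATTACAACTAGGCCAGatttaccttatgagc
Erg, 69 nt: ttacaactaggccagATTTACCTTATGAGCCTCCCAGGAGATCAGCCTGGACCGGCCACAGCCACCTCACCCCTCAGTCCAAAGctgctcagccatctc
Each of these 4 exons is a whole number of codons long, so the reading frame is kept with or without it.

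All 6 genes reached 1 TPM in both libraries, against 34.6% of all Ensembl genes and 61% of protein-coding genes. Their levels fell into 2 ranges. Osr2, Osr1, Enpp2 and Erg lay between 22.9 and 89.7 TPM in single libraries, and Barx1 and Prg4 between 1.20 and 2.40 TPM. At a threshold of 5 TPM the same first 4 genes passed.

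Osr1 (ENSMUSG00000048387, chr12:9570116-9581500, plus strand) had 76.1 TPM in replicate 2 and 69.1 TPM in replicate 1, from 4025 and 2749 expected counts. Osr2 (ENSMUSG00000022330, chr15:35296098-35303305, plus strand) had 78.9 TPM in replicate 2 and 89.7 TPM in replicate 1, from 3546 and 3035 counts. The means were 72.6 ± 4.999 TPM for Osr1 and 84.3 ± 7.63 TPM for Osr2, and both libraries of Osr2 were above both of Osr1. Among 21474 protein-coding genes Osr2 ranked 1981 and Osr1 ranked 2347. The posterior SD of the count was 0 for both genes in both libraries, so the quantifier divided no reads between the pair shown above or with any other gene.

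Barx1 (ENSMUSG00000021381, chr13:48662998-48666507, plus strand) had 2.25 TPM in replicate 2 and 2.40 TPM in replicate 1. These values rest on 81 and 65 counts, and their credibility intervals, whose level the sources do not state, were 1.75 to 2.72 TPM in replicate 2 and 1.80 to 2.94 TPM in replicate 1. The libraries overlap, and the gene ranked 12041 among protein-coding genes. Its paralog Barx2, a homeobox factor also of myogenic cells, averaged 1.63 ± 0.156 TPM. The log2 ratio of Barx1 over Barx2 was 0.49, within 2 times the combined replicate SD of 0.46.

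Erg (ENSMUSG00000040732, chr16:95359169-95586593, minus strand) had 22.9 TPM in replicate 2 and 27.3 TPM in replicate 1, from 1248 and 1103 counts. Its mean of 25.1 ± 3.11 TPM ranked 5787. Erg is also a marker of endothelium, and its level lay within the range of the listed endothelial genes, 6.36 to 86.6 TPM. Fli1, the closest ETS relative and also endothelial, averaged 29.9 ± 2.09 TPM, and Cdh5, the adhesion molecule of endothelial junctions, averaged 21.6 ± 0.509 TPM. The log2 ratio of Erg over Fli1 was −0.31 in replicate 2 and −0.20 in replicate 1, and that of Erg over Cdh5 was 0.11 in replicate 2 and 0.31 in replicate 1. Both means, −0.25 and 0.21, lay within the spread between libraries, although Erg over Fli1 passed it on replicate 2 alone and on counts without length scaling (−0.86), where Erg over Cdh5 turned to −0.78. All 13 endothelial markers of the list were detected, with a summed level of 405 TPM in replicate 2 and 399 TPM in replicate 1. How much of Erg came from endothelium and how much from joint cells was not tested.

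Enpp2 (ENSMUSG00000022425, chr15:54838901-54952892, minus strand) had 56.2 TPM in replicate 2 and 68.5 TPM in replicate 1, from 4665 and 4289 counts. Its mean of 62.3 ± 8.73 TPM ranked 2736. It was the highest of the 7 Enpp genes listed, and it exceeded Enpp1, which makes the mineralisation inhibitor pyrophosphate, by 3.75 on the log2 scale or 13.5-fold, past the spread. The next in the family was Enpp5 at 16.5 ± 1.14 TPM. Enpp7, an intestinal sphingomyelinase, was listed at 0 in both libraries. Enpp6, a choline-releasing phosphodiesterase, stood at 1.21 TPM in replicate 2 and 0.880 TPM in replicate 1.

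Prg4 (ENSMUSG00000006014, chr1:150449412-150466165, minus strand) had 1.34 TPM in replicate 2 and 1.20 TPM in replicate 1, from 74.3 and 52.3 counts. Its mean of 1.27 ± 0.0990 TPM ranked 12963, which left 98.7% of the detected protein-coding genes above it. Of the 6 genes only Prg4 shared reads with other genes by the model, its gene count having a posterior SD of 2.31 counts in replicate 2 and 1.81 counts in replicate 1. Comp, a matrix protein of cartilage and tendon, was 17.7-fold higher than Prg4 with 0.1 TPM added to both. The mean log2 ratio of Prg4 over Comp was −4.15, past the spread, with −4.39 in replicate 2 and −3.90 in replicate 1. By posterior mean TPM it was −3.78.

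The end of Prg4 overlaps another gene. Its last exon shares 204 nt, at chr1:150449732-150449935, with an exon of Tpr on the opposite strand, which encodes a nuclear pore protein. Tpr had 163 TPM in replicate 2 and 170 TPM in replicate 1, from 10288 and 7959 counts. Strand use in counting is not given in the sources used here, so reads of Prg4 and Tpr within the shared bases cannot be told apart. The spans of Osr1 and Enpp2 also overlap an opposite-strand gene in GENCODE M21, but these had 0 counts (1700022H16Rik) and at most 1 count (Gm26684) in a library. Osr1 shares 0 nt of exon with its neighbour. The 345 nt of exon that Enpp2 shares lie upstream of the M21 starts of all 4 of its quantified transcripts.

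**Figure D1:**
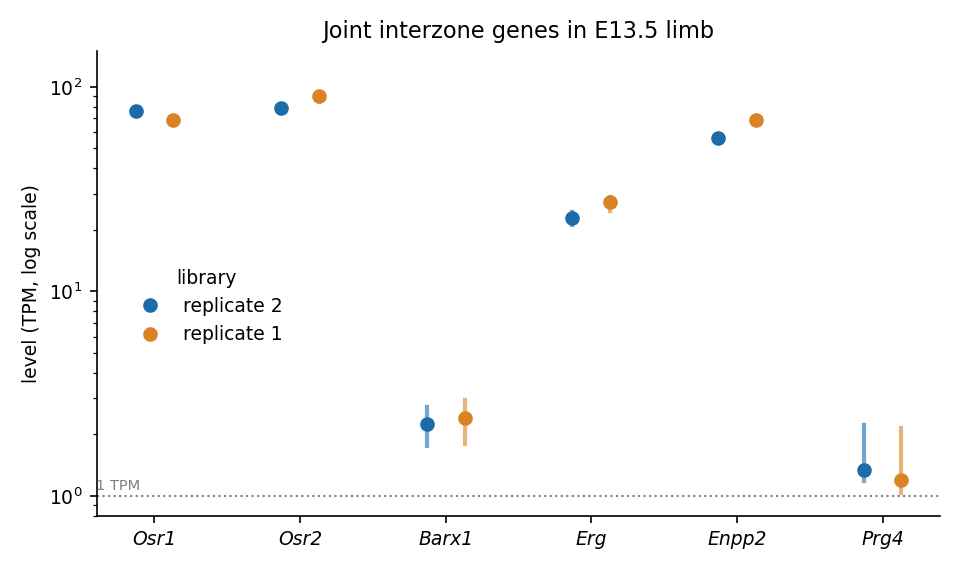
Level of each joint interzone gene in TPM on a log axis, replicate 2 in blue left of replicate 1 in orange, with points for the deposited value and vertical lines for its credibility interval. Osr1, Osr2, Enpp2 and Erg sit at 22.9 TPM or more, whereas Barx1 and Prg4 sit between 1.20 and 2.40 TPM, just above the dotted line at 1 TPM.

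Pairwise ratios on log2(TPM + 0.1) gave the order of the levels. A pair was called different where both libraries had the same sign and the mean ratio passed 2 times the combined replicate SD of genes of like abundance. By this rule 14 of the 15 pairs differed, near the 90.8% of 4095 pairs of other listed genes that did, so the count says little about these genes. Barx1 over Prg4, at 0.83 with a combined SD of 0.65, was the pair within the spread. The first steps of the order were small. Osr2 exceeded Osr1 by 1.16-fold (log2 ratio of Osr1 over Osr2 −0.21), but the ratio was −0.05 in replicate 2 and −0.38 in replicate 1. Osr1 over Enpp2 was 0.44 in replicate 2 and 0.01 in replicate 1. Thus the place of Osr1 in the order rests on single libraries: without replicate 1 the first pair, and without replicate 2 the second, fell within the spread. Osr2 over Enpp2 held in both, at 0.49 in replicate 2 and 0.39 in replicate 1. On counts without length scaling Osr1 over Enpp2 turned round to −0.43 and Osr2 over Enpp2 to −0.45, both past the spread. Osr1 over Osr2 was then 0.020, within the spread, so that pair showed no difference. From this group down to Erg the step was larger, since Enpp2 exceeded Erg by 2.47-fold with nearly the same ratio in both libraries. From Erg to Barx1 it was 10.4-fold. Set beside the chondrocyte factor Sox9, at 181 ± 9.69 TPM, Osr1 was 2.49-fold lower.

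Between the libraries, 3 of the 6 genes differed by more than 2 SD of the ratio of the 500 genes nearest in count, where 4.46% of 17406 genes did so. These were 1.91% lower and 2.55% higher in replicate 2. Among genes with a mean of 1000 counts or more it was 4.9%. All 3 were lower in replicate 2. On TMM-scaled counts the log2 ratio of replicate 2 over replicate 1 was −0.31 for Enpp2, at 3.45 SD of like genes. It was −0.21 for Osr2 and −0.25 for Erg, at 2.33 and 2.25 SD. On TPM in place of scaled counts, Enpp2 alone stayed past the limit, and Osr2 (−0.18) and Erg (−0.25) fell within it. Osr1 (0.12), Barx1 (−0.11) and Prg4 (0.07) were within the spread by either measure. With 1 library on each side there is no test of these differences.

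Other genes moved between the libraries as well. Of 99 further listed genes that had 10 counts or more in both libraries, 17 passed the same limit, 11 higher and 6 lower in replicate 2. Among the limb tissue genes, the forelimb factor Tbx5 had 36.5 TPM in replicate 2 and 25.2 TPM in replicate 1, and the hindlimb factor Pitx1 had 73.8 TPM in replicate 2 and 90.4 TPM in replicate 1. Msx1 was higher and Hoxd13 lower in replicate 2. Of the 11 chondrocyte markers, Col2a1, Acan and Col11a2 were higher and Sox5 and Col9a2 lower in replicate 2. The summed level was 1827 TPM in replicate 2 and 1722 TPM in replicate 1. Col2a1 alone held 699 TPM of this sum in replicate 2 and 595 TPM in replicate 1, so the sum follows that gene. None of the 13 endothelial markers passed the limit on scaled counts, where their log2 ratios ran from −0.36 for Sox17 to 0.15 for Emcn. Erg (−0.25) passed it there but not on TPM. Its relative Fli1 was also lower in replicate 2 (−0.19, with an SD of like genes of 0.098), within the limit. The part of limb type or of tissue make-up in the lower Osr2, Erg and Enpp2 was not tested.

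**Figure D2:**
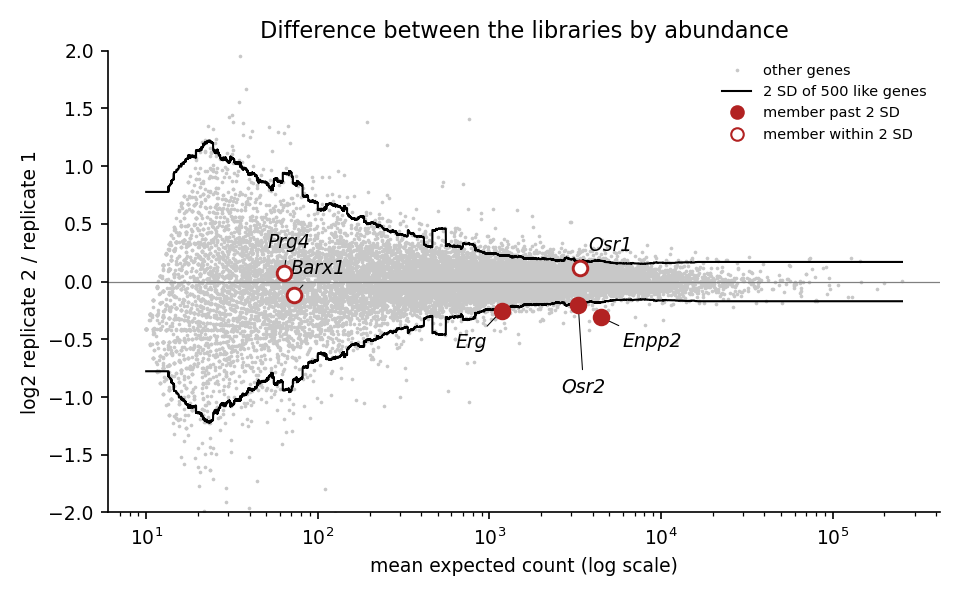
Log2 ratio of replicate 2 over replicate 1 against the mean expected count on a log axis, for 17406 genes in grey, of which 17 lie outside the axis limits. Black lines mark 2 SD of the 500 genes nearest in count, and Osr2, Erg and Enpp2 (filled red) lie below the lower line while Osr1, Barx1 and Prg4 (open red) lie between the lines.

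Alternative transcripts could be compared in 3 of the 6 genes. The tables held 24 transcript models for them, of which Erg had 9, Prg4 8, Enpp2 4 and each of the others 1. Osr1, Osr2 and Barx1 therefore have a share of 100% by construction. Shares are the deposited percent of the gene's TPM held by a transcript.

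Enpp2 RNA was mostly of the form that skips both optional exons printed above. Enpp2-201, which lacks them, held 84.0% in replicate 2 and 84.3% in replicate 1 (84.1% ± 0.233). Transcripts with the 156-nt exon, Enpp2-203 and Enpp2-204, together held 15.5% in replicate 2 and 14.5% in replicate 1 (15% ± 0.764). This exon belongs to the alpha form of autotaxin, whose basic insert binds heparin. The transcript with the 75-nt exon, Enpp2-202, held 0.490% in replicate 2 and 1.24% in replicate 1. That exon belongs to the gamma form, known from the brain, and the form with neither is called beta. The lower Enpp2 of replicate 2 was seen in the leading form, since Enpp2-201 stood at 47.2 TPM in replicate 2 and 57.8 TPM in replicate 1. Its credibility intervals did not overlap, but such intervals do not measure variation between replicates. Those of Osr1 did not overlap either, although its ratio between libraries lay within the spread. No Enpp2 transcript changed its share by over 10 points, against 1.5% of transcripts of genes within 2-fold of its level. The deposited length of Enpp2-203 is 3398 nt and that of the GENCODE M21 model is 2745 nt, so its exact ends are uncertain.

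Erg was spread over many transcripts. Erg-202 held 40.5% in replicate 2 and 29.5% in replicate 1, and Erg-208 held 28.9% in replicate 2 and 24.6% in replicate 1. By expected counts the order of these was the other way round, with 578 and 441 counts for Erg-208 and 326 and 214 for Erg-202 in replicates 2 and 1, since the model of Erg-202 is a coding sequence of 1368 nt and that of Erg-208 is 3249 nt long. Erg-206 held 12.5% in replicate 2 and 12.03% in replicate 1. Erg-205 held 2.19% in replicate 2 and 14.4% in replicate 1. Erg-204 held 9.31% in replicate 2 and 6.31% in replicate 1. The rest, Erg-201, Erg-203, Erg-207 and a 1280-nt transcript with no GENCODE M21 model (ENSMUST00000177450), each held under 5% in either library. The reads of Erg and Enpp2 were divided among their own transcripts, so these shares are estimates even where the gene counts are whole.

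Grouped by the optional exons, the 69-nt exon of Erg was present in 87.3% of its TPM in replicate 2 and 80.5% in replicate 1. The 72-nt exon was present in 36.3% in replicate 2 and 48.3% in replicate 1. Both exons together made up 34.3% in replicate 2 and 39.0% in replicate 1, and the 69-nt exon alone 53.0% in replicate 2 and 41.6% in replicate 1. By expected counts alone, with no length scaling, the order was the other way round: models with both exons held 50.6% in replicate 2 and 48.3% in replicate 1, those with the 69-nt exon alone 39.7% in replicate 2 and 32.6% in replicate 1, and all with the 72-nt exon 52.8% in replicate 2 and 60.4% in replicate 1. The 72-nt exon without the other made up 2.08% of TPM in replicate 2 and 9.36% in replicate 1. In human ERG, exons between the Pointed and ETS domains are known to be optional, among them one that all 8 matched mouse models keep, here of 81 nt (chr16:95379112-95379192). A form without it could therefore not be quantified from these 8. Whether the transcript with no GENCODE M21 model holds this exon is unknown. Erg-202 and Erg-205 differed by over 10 points between libraries, 2 of its 9 transcripts, against 3.68% of transcripts of genes within 2-fold of its level and 7.22% of those of all detected genes with several transcripts. No Erg transcript had credibility intervals in TPM that were separate between the libraries, and with shares from posterior means Erg-205 fell to a difference under 10 points.

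The Erg models also divide by where they begin. Those that begin upstream (Erg-206, Erg-208, Erg-201 and Erg-204) held 52.8% in replicate 2 and 47.5% in replicate 1 (50.1% ± 3.71), and those that begin within the gene near chr16:95459348 (Erg-202, Erg-203, Erg-205 and Erg-207) held 45.9% in replicate 2 and 48.7% in replicate 1 (47.3% ± 1.97). Both groups were thus close in share, and by expected counts the upstream models held 68.7% in replicate 2 and 62.7% in replicate 1. The 250 bases before the most upstream start and before the inner one, from RefSeq on GRCm38.p6, are printed on the minus strand as the outer starts of both groups. Few of the estimated transcripts begin exactly there: Erg-206 begins at the upstream start, and of the inner models only Erg-203, at 3.17% in replicate 2 and 0% in replicate 1, begins at the inner one, while Erg-202 and Erg-205 begin at chr16:95459245 and Erg-207 at chr16:95459303. Capitals mark GGAA or its reverse complement TTCC, the core letters that ETS factors bind. The windows are chr16:95586594-95586843 and chr16:95459349-95459598.
Erg, upstream start: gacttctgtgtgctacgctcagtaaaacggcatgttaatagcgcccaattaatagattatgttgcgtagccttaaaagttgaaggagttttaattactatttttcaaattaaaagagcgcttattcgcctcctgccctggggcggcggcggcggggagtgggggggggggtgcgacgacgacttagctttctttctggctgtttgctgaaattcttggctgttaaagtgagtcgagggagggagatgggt
Erg, inner start: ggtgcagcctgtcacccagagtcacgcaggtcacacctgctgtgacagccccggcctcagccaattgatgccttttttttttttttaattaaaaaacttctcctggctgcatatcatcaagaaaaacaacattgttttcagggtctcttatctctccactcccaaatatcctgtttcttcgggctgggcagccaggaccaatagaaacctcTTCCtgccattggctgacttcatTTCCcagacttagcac
The upstream window holds 0 matches and the inner one 2, where the median of 32851 RefSeq windows of the same length is 3 and 93.4% hold at least 1. The upstream window has 14 CpG dinucleotides and 48.8% G and C, the inner one 3 and 47.2%, and the median window 6 and 52.4%. TATAAA is in neither, and is in 12.4% of windows on either strand. The remaining RefSeq window of Erg, before chr16:95530365, has 4 matches of GGAA or TTCC, 2 CpG dinucleotides and 36% G and C. It has no TATAAA in the direction of Erg, but 1 match of its reverse complement TTTATA.

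The start given for Erg-208 and Erg-201, at chr16:95530365, needs caution. Their first exon of 102 nt, chr16:95530264-95530365, is the second exon of Erg-206, and the 40 bases before it end in AG (capitals), the letters found at the end of an intron.
Erg, before the 102-nt exon: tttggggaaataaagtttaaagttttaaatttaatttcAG
Whether RNA assigned to these models began there or at the most upstream start cannot be told apart from the tables. They held 31.0% in replicate 2 and 29.2% in replicate 1.

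Prg4 transcripts differ mainly in the large central exon, which encodes the mucin-like repeats that are heavily glycosylated in lubricin. The whole exon spans 2286 nt at chr1:150454052-150456337. The short form Prg4-201 keeps 87 nt of its start and 69 nt of its end. The junction between these parts is shown with the 30 bases after it in capitals, since it sets the short form apart.
Prg4-201 and Prg4-207: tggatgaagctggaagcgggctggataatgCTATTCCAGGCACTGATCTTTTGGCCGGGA
Prg4-201 held 77.2% in replicate 2 and 84.1% in replicate 1, and the other short model, Prg4-207, was listed at 0 in both. The partial form Prg4-202, which keeps 863 nt and 919 nt of the exon, held 12.1% in replicate 2 and 6.96% in replicate 1. Prg4-208, with the whole exon, held 4.98% in replicate 2 and 8.96% in replicate 1. Prg4-205, a model of 577 nt that ends before the end of the exon, held 5.80% in replicate 2 and 0% in replicate 1, from about 1 count and 0 counts. Prg4-203, Prg4-204 and Prg4-206 were listed at 0 in both.

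These Prg4 shares rest on few reads. Prg4-201 had 50.5 counts in replicate 2 and 37.1 in replicate 1, and Prg4-208 had 7.66 in replicate 2 and 9.31 in replicate 1. From posterior means the short forms held 63.2% in replicate 2 and 64.9% in replicate 1, and the models that end early, Prg4-204 and Prg4-205, 21.7% in replicate 2 and 18.8% in replicate 1. The 4 models 201, 202, 203 and 208 hold all 204 nt of the overlap with Tpr, Prg4-207 holds 120 nt and Prg4-206 67 nt, so the shares touch it too. None of the 8 transcripts differed by over 10 points between libraries, where 30.9% of transcripts of genes of like level did. However, Prg4-203, Prg4-204, Prg4-206 and Prg4-207 were at 0 in both libraries and so showed no difference. Transcripts at 0 were not left out of the compared set either. With so few reads this does not show that the shares of Prg4 are stable.

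**Figure D3:**
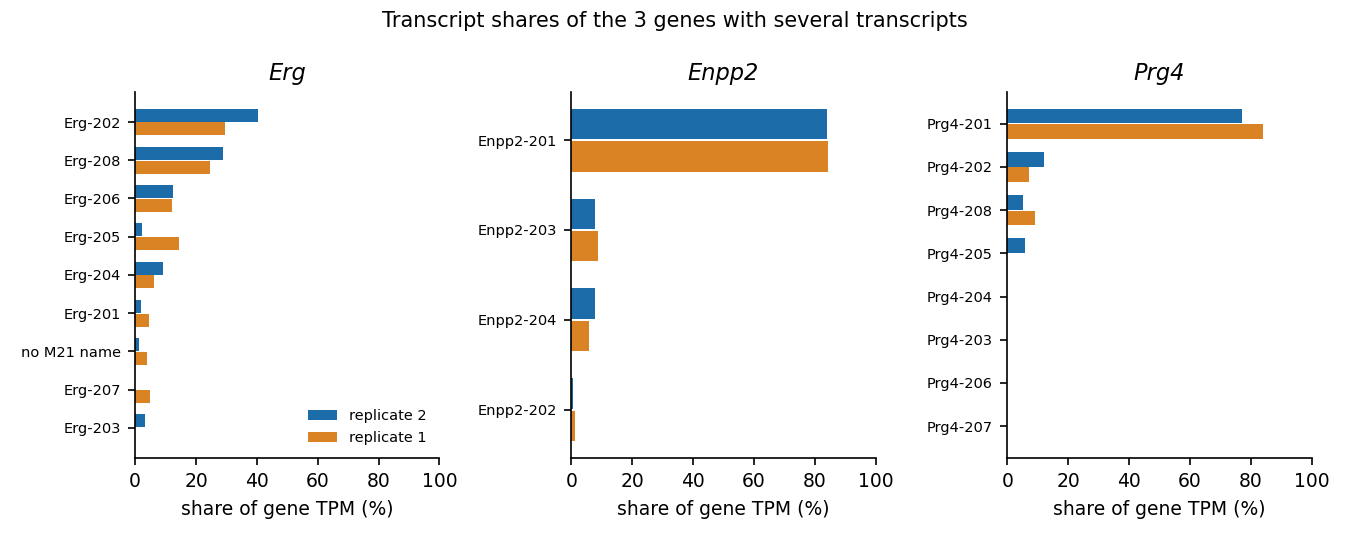
Share of the gene's TPM held by each transcript of Erg, Enpp2 and Prg4, as bars from 0 to 100%, replicate 2 in blue above replicate 1 in orange. Enpp2-201 and Prg4-201 hold most of their genes in both libraries, whereas Erg divides over Erg-202 (40.5% in replicate 2 and 29.5% in replicate 1), Erg-208 and others.

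The other genes of the interzone were described from lists. All 10 signals of the interzone were detected, with a median of 7.10 TPM. Sfrp2, a secreted Wnt modulator, was highest at 367 ± 26.2 TPM, followed by Gdf5, the BMP-family signal that defines the interzone, at 86.4 ± 3.39 TPM, the Notch ligand Jag1 at 15.8 ± 0.177 TPM and the BMP antagonist Nog at 7.57 ± 0.651 TPM. Gdf6, a relative of Gdf5, was lowest at 3.45 ± 0.269 TPM. Barx1 and Prg4 were below all 10 signals in the mean, and Osr2 and Osr1 came next after Gdf5.

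All 10 further regulators were also detected, with a median of 26.0 TPM. Jun, which acts upstream of Wnt signals in the joint, averaged 84.2 ± 0.438 TPM, Trps1 50.9 ± 6.75 TPM, the hedgehog effector Gli3 43.9 ± 1.56 TPM and Nfatc1, a factor of articular progenitors, 37.3 ± 2.32 TPM. Foxc2 was lowest at 6.56 ± 0.438 TPM. In this list Trps1 was higher and Foxc1 lower in replicate 2 past the spread.

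Of 16 genes of joint matrix and surface, 14 were detected, with a median of 16.8 TPM. The proteoglycan Vcan led at 118 ± 2.06 TPM, followed by the sulfatase Sulf1 at 114 ± 0.608 TPM, the protease Htra1 at 70.0 ± 5.55 TPM and the glycoprotein Tnc at 48.7 ± 8.12 TPM. Vit (0.445 ± 0.0495 TPM) and the tenascin Tnxb (0.0750 ± 0.00707 TPM) were below 1 TPM. Prg4 therefore lay near the low end of this list, beside Cilp2 at 1.20 ± 0.247 TPM and Cilp at 1.58 ± 0.0566 TPM, matrix proteins of cartilage. Tnc, Thbs4 and Comp were higher and Aspn lower in replicate 2 past the spread.

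The genes on either side of the autotaxin product were unequal. Of 9 LPA receptors and lipid phosphate phosphatases, 6 were detected. The receptor Lpar1 stood at 194 ± 3.83 TPM, 3.12-fold above Enpp2 (log2 ratio of Enpp2 over Lpar1 −1.64, past the spread), and Lpar4 at 38.6 ± 1.56 TPM. Lpar2, Lpar3 and Lpar5 were below 1 TPM, at 0.750, 0.825 and 0.520 TPM. The phosphatases Plpp3 and Plpp1, which can degrade LPA at the cell surface, averaged 125 ± 8.57 and 51.4 ± 0.636 TPM. None of the 9 differed between libraries past the spread, where 4.46% of 17406 genes did, so this count says little. Their log2 ratios of replicate 2 over replicate 1 ran from −0.16 for Plpp3, with an SD of like genes of 0.082, to 0.86 for Lpar5. The latter rests on 25 counts in replicate 2 and 10 in replicate 1. Enpp2 was past the spread, at −0.31.

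Among 7 other ETS genes 6 were detected. Etv5 alone of them passed the spread between libraries, higher in replicate 2 (log2 ratio 0.20). Ets2 was highest at 94.8 ± 2.86 TPM, followed by Etv5, a target of FGF signalling, at 35.4 ± 3.86 TPM, Ets1 at 34.5 ± 0.410 TPM and Elk3 at 32.0 ± 0.764 TPM. Fev, the third member of the Erg subfamily and known from serotonin neurons, was at 0.105 ± 0.0212 TPM. Within that subfamily the limb therefore held Erg and Fli1, and hardly any Fev.

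Genes listed for neighbouring tissues were described in the same way. All 5 tendon genes were detected, as were all 4 genes listed for muscle connective tissue. Kera, a proteoglycan of tendon, led the tendon genes at 75.2 ± 2.13 TPM, and Tcf7l2, a Wnt effector that marks muscle connective tissue, averaged 151 ± 4.82 TPM. The list also held Tcf4, at 256 ± 2.14 TPM, a broadly expressed E-protein gene that is not a marker of that tissue although Tcf7l2 is often called by its name. How much of Osr1 came from muscle connective tissue and how much from joints was not tested.

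**Figure D4:**
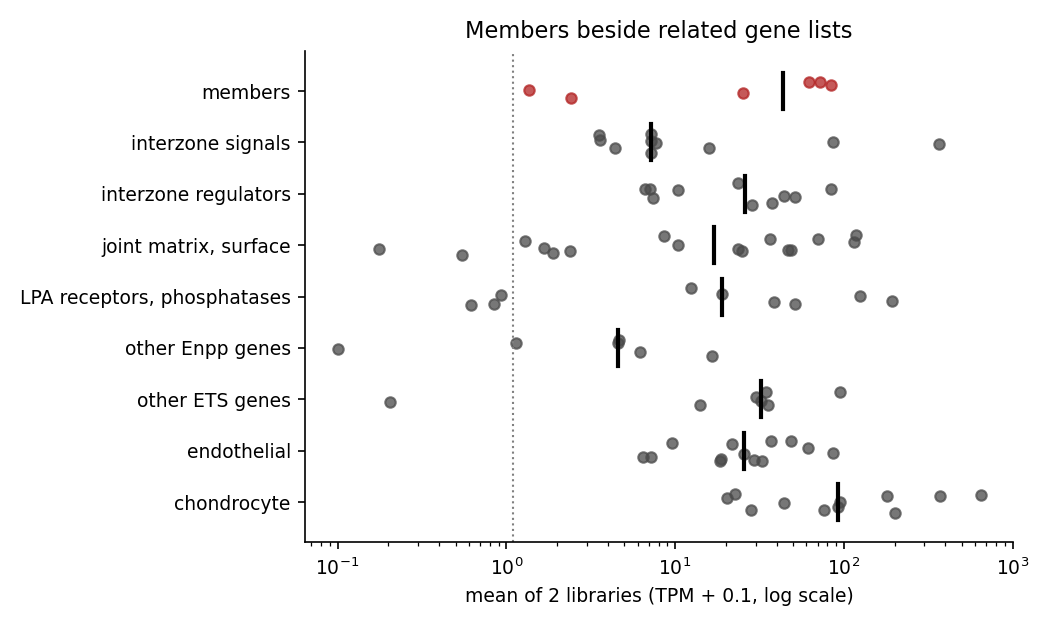
Mean level of each gene as TPM + 0.1 on a log axis, with the 6 joint interzone genes in red at the top and genes of related lists in grey below, each black bar marking a list's median. Osr1, Osr2 and Enpp2 lie among the higher genes of the interzone lists, and Barx1 and Prg4 lie just right of the dotted line at 1 TPM.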

How the data were processed

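Reads had been placed on mm10 per the labels and counted over GENCODE M4 per accompanying text files. The sources used here give no aligner, quantifier or strand setting. The expected counts deposited by the authors divide multi-matching reads among transcripts. The deposited TPM and FPKM scale them by effective length, which was length minus 99 nt. IsoPct is the deposited percent of a gene's TPM. Posterior means and credibility bounds are the authors' columns. With 1 group there was no test between conditions.

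Symbols matched 42462 of 43346 Ensembl identifiers. A further 26248 rows with bare numbers as names (0.000226% of the counts of replicate 1) and the spike-ins (2.07% in replicate 2, 2.11% in replicate 1) were left out. Positions and transcript names came from GENCODE M21. Of the 24 transcripts 20 matched by identifier, 3 of Erg by length and 1 of Erg not. Rounded counts of 17441 genes with at least 10 in each library gave TMM scaling and dispersion (edgeR 4.0.16, R 4.3.3), with DESeq2 1.42.0 size factors as an alternative. Other steps used Python 3.11.15. Log2 ratios between libraries had 0.5 added to scaled counts. On counts simulated with a coefficient of variation of 10% the dispersion step returned 9.96% over 17550 genes. In a set of 17554 the limit of 2 SD called 99 of 100 genes set to a 4-fold change, and 100 of 100 at 8-fold. It also called 2.16% of the unchanged genes. Changes as small as those of Osr2, Erg and Enpp2 were not simulated, so this check does not bear on their calls. The genes, lists and choices were set with earlier results of these data known. All 6 genes and their transcripts are named, and of each list the 4 highest, the lowest and those below 1 TPM where they add to the text, with genes that moved between libraries named after their values were seen. RefSeq promoter windows matched Erg (3) and Barx1 (1). Alternatives were another threshold, scaling, filter, prior, pseudocount or number of like genes, posterior means, FPKM, counts not divided by length, and leaving out each library.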

Additional observations from a re-analysis of the deposited data

How the results depend on the processing

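All 6 genes were detected with either library left out (6 to 6), 4 of them at 5 TPM and 5 by FPKM. Listed genes detected were 91, with 94 at 0.5 TPM and 91 to 92 with a library left out. Member pairs past the spread were 14, with 12 to 14 under the alternatives and 13 to 13 with a library left out. Counts not divided by length turned Osr1 over Enpp2 to −0.43, Osr2 over Enpp2 to −0.45 and Erg over Cdh5 to −0.78 on the log2 scale, all past the spread. On them Osr1 over Osr2 was 0.020, within the spread. The same alternative put Erg over Fli1 past the spread, at −0.86 against −0.25. It moved Barx1 over Barx2 to −0.0061 from 0.49, within the spread both times. By its construction that alternative favours longer transcripts. Osr1 over Osr2 (−0.21) and Osr1 over Enpp2 (0.22) kept their direction but lost the call with posterior mean TPM. The genes that differed between libraries were 3, and 1 on TPM, namely Enpp2. Transcripts over 10 points apart were 2, and 1 with shares from posterior means. For these the cause was not tested. No paired analysis was possible because there is 1 group. Depth limits Barx1 and Prg4, at 52.3 to 81 counts a library, and Prg4 averaged 1.63 TPM by posterior means.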
